A study of Mus musculus with 2 samples.

Results

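Peg13 is a long non-coding RNA transcribed from inside an intron of Trappc9 on mouse chromosome 15, and the genes described here are Peg13, its host Trappc9 and their neighbours Kcnk9 and Chrac1. They were chosen by name and position, and they are 4 genes beside 1718 annotated genes that lay wholly inside the covered parts of the data. Peg13, Trappc9 and Chrac1 held signal, and Kcnk9 held none in either library and was not measured. The RNA came from mouse embryo fibroblasts (MEFs), the cells grown out of a trypsin-dispersed embryo carcass without head and internal organs. The JXO library was made from 1 female MEF line of a cross between a JF1 mother and a TgOG2 father, and the OXJ library from 1 female MEF line of the reciprocal cross with a TgOG2 mother and a JF1 father. Both lines were derived at 13.5 dpc and used at an early passage, both carry 1 TgOG2 and 1 JF1 genome, and the TgOG2 line is homozygous for a GOF18ΔPE-EGFP transgene. JF1 is an inbred strain of the molossinus subspecies, which differs from the reference genome at many bases.

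Peg13 is known as an imprinted gene that is read from the paternal chromosome, with a promoter inside a differentially methylated region that carries methylation on the maternal copy. The surrounding genes Trappc9, Chrac1, Kcnk9 and Ago2 are known for a preference for the maternal copy in mouse brain. Trappc9 encodes a subunit of the TRAPP II complex, which acts in vesicle transport at the Golgi. Chrac1 encodes a histone-fold subunit of the CHRAC chromatin remodelling complex. Kcnk9 encodes the two-pore potassium channel TASK-3, best known from neurons.

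The unit of every level is the mean scaled depth, the depth in reads per base after scaling to 50000000 aligned reads. On this scale a single read added 0.652 in JXO and 0.579 in OXJ to the bases under it. The deposited tracks hold 5837225 reads of JXO and 5785447 reads of OXJ, 7.61% and 6.70% of the aligned reads, in 618 separate stretches. A gene outside these stretches was therefore not measured. The annotated strand was the higher strand in 691 of 773 protein-coding genes in JXO (89.4%) and in 689 of 775 in OXJ (88.9%). Of 14 fibroblast markers 3 lay inside the stretches, with Col1a2, a chain of type I collagen, at 583 in JXO and 388 in OXJ. Dcn was at 22.9 and 25.9, and Lum at 18.9 and 15.5. Of 10 neural markers 2 lay inside, Nes at 340 and 155 and Sox2 at 1.27 and 1.22. With 1 library per cross no difference between the crosses could be tested, and the 95% intervals below are exact intervals on read pairs that cover counting error only, not the spread between embryos or cultures. The tracks do not tell the parental alleles apart, so expression by allele was not analysed here, and which library belongs to which cross rests on the deposited labels. The scaling of the tracks implies 76712608 aligned reads for JXO and 86369632 for OXJ. The study's methods assign these totals to the same crosses. Its table of read numbers at single bases mostly runs the same way as the tracks for maternally expressed genes, but mostly the other way for paternally expressed genes, with JXO and OXJ exchanged at the bases it lists in Peg13 and in Slc38a4. The tracks mark no allele and cannot settle this, so every direction between the crosses given below holds for the libraries as labelled.

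Peg13 is not part of the GENCODE M1 annotation, and its interval was read from the signal. On the minus strand of chr15 (mm9), 500 bp bins at 10 times the level of the Trappc9 introns or more ran without a break over 72636001 to 72640500 in both libraries. These 9 bins, 4.5 kb in all, are called the Peg13 body. They lie in intron 16 of Trappc9, which is 146 kb long, 251 kb from the Trappc9 start and 216 kb from its end. At 3 times the intron level the run was longer, 7.5 kb in JXO (72633501 to 72641000) and 6.0 kb in OXJ (72634501 to 72640500).

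The 5′ end of the body lies where CpG, the dinucleotide at which DNA methylation occurs, was densest among 89 bins of 500 bp around Peg13. The first exons of the other genes of the locus were not counted. The 5′ end of the body is a border between 500 bp bins. At 0.5 times the median depth the signal reached 72640351 in JXO and 72640444 in OXJ. At 0.1 times it reached 72640893 in JXO, outside the sequence shown, and 72640617 in OXJ. The sequence of the minus strand over chr15:72640351-72640650 (mm9), 150 bases on either side of this border, is shown with CpG in capitals.
Peg13 5′ edge: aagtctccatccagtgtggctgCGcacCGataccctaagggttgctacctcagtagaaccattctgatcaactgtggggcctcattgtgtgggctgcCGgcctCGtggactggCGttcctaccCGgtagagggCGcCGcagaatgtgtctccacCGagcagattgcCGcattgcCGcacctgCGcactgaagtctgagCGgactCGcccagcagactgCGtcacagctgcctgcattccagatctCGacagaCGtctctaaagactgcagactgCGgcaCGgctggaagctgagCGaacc
The window holds 20 CpG and is 60.0% G or C. None of 1511 windows of 300 bases laid end to end over the Trappc9 introns held as many, and their median was 3. Counted in 500 bp bins, CpG reached 35 in the first bin of the body (72640001 to 72640500), 23 in the bin before it and 19 in the bin after it, against a median of 4 over 89 bins around Peg13.

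Toward the 3′ end of the body the depth dropped next to a polyadenylation hexamer. At 0.1 times the median depth the signal ended at 72635993 in JXO, inside the sequence shown, and at 72635501 in OXJ, outside it. The minus strand over chr15:72635951-72636100 (mm9) is shown because the depth drops inside it, with AATAAA in capitals.
Peg13 3′ edge: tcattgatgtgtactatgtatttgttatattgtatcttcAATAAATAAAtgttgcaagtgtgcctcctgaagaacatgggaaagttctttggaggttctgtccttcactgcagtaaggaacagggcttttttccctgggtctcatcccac
The window holds AATAAA 2 times, in overlapping copies at 72636056 to 72636061 and 72636052 to 72636057. Searched on the same strand, AATAAA was present in 146 of 3038 windows of 150 bases over the Trappc9 introns (4.81%). In the 500 bases before the hexamers the level was 16.5 in JXO and 1.45 in OXJ. It was 3.57 and 0 in the next 50 bases, and 0.587 and 0.217 in the 500 bases after those. The match is a description of the letters, and the use of the site was not measured.

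Peg13 was the member in which the libraries stood farthest apart. Over the body its level was 20.5 (19 to 22.1) in JXO and 2.51 (2.04 to 3.06) in OXJ. The plus strand was at 0.623 and 0.0912, so that the minus strand held 97.0% of the signal in JXO and 96.5% in OXJ. Reads covered 99.9% of the bases of the body in JXO and 88.2% in OXJ, and no gap of the length of an intron was seen in JXO.

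After scaling to equal totals of deposited reads, Peg13 was 7.19-fold higher in the library labelled JXO (95% interval 5.81 to 8.98). The read numbers that the study lists at a base inside Peg13 run the other way, with OXJ the higher cross, so the size of this fold comes from the tracks and its direction from their labels. All 9 bins of the body were higher in JXO, by 3.70-fold to 10.2-fold with a median of 8.29-fold. JXO bins lay between 13.5 and 30.0 and OXJ bins between 1.27 and 4.89, so that the lowest JXO bin lay above the highest OXJ bin. Within a library the signal was highest toward the 5′ end, in the bin 72639001 to 72639500 in JXO and in the adjacent bin 72639501 to 72640000 in OXJ. In bulk RNA, fewer cells that transcribe Peg13 and less Peg13 RNA per cell cannot be told apart. With 1 line per cross, the cross and the line cannot be told apart either. Reads were aligned to the reference genome, and whether JF1 reads of Peg13 aligned as often as TgOG2 reads was not tested.

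**Figure D1:**
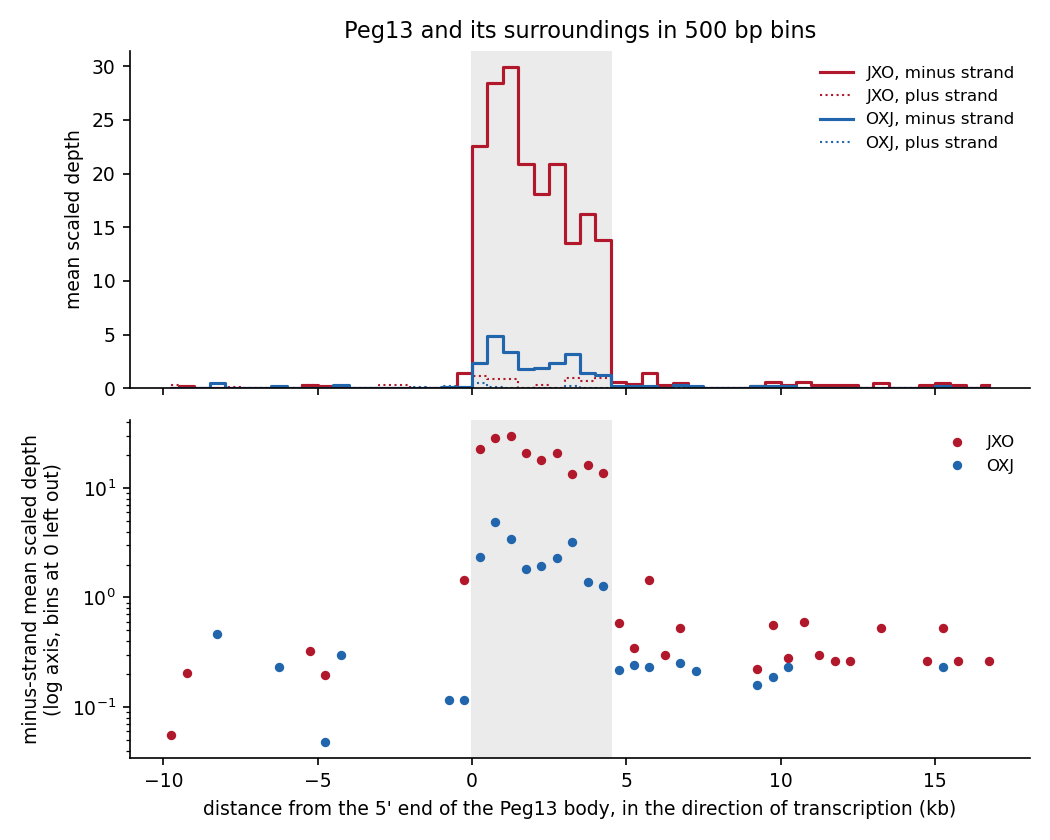
Mean scaled depth in 500 bp bins around Peg13, with the distance from the 5′ end of the body in kb on the x axis, on a linear axis for both strands (top) and a log axis for the minus strand (bottom). The grey band marks the body, where all 9 JXO bins lie between 13.5 and 30.0 and all 9 OXJ bins between 1.27 and 4.89.

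The ratio of Peg13 between the libraries labelled JXO and OXJ lay at the far end of the genes measured. With 0.1 added to each level, its log2 ratio was 2.80, while the median over 761 genes with a mean level of at least 1 was 0.29 and the range from the 2.5 to the 97.5 percentile was -1.08 to 1.30. On this scale 36 of 761 genes (4.73%) were at least 2-fold higher in JXO and 22 (2.89%) at least 2-fold higher in OXJ. Of the 3 members with signal, Peg13 alone passed 2-fold in either direction. The ratio of Peg13 was reached by 2 of the 761 genes, AL772216.12 and AL772216.28, which shared the value of 4.03 in JXO and were at 0 in OXJ. Among the 420 genes with at least the mean level of Peg13, the nearest ratios were those of Gng11 (log2 ratio 1.86), Tfpi2 (1.72), Fibin (1.71), Pmaip1 (1.43) and Mir432 (1.36). Likeness was taken here as the difference in log2 ratio over 2 libraries, so it ranks genes by 1 number each.

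**Figure D2:**
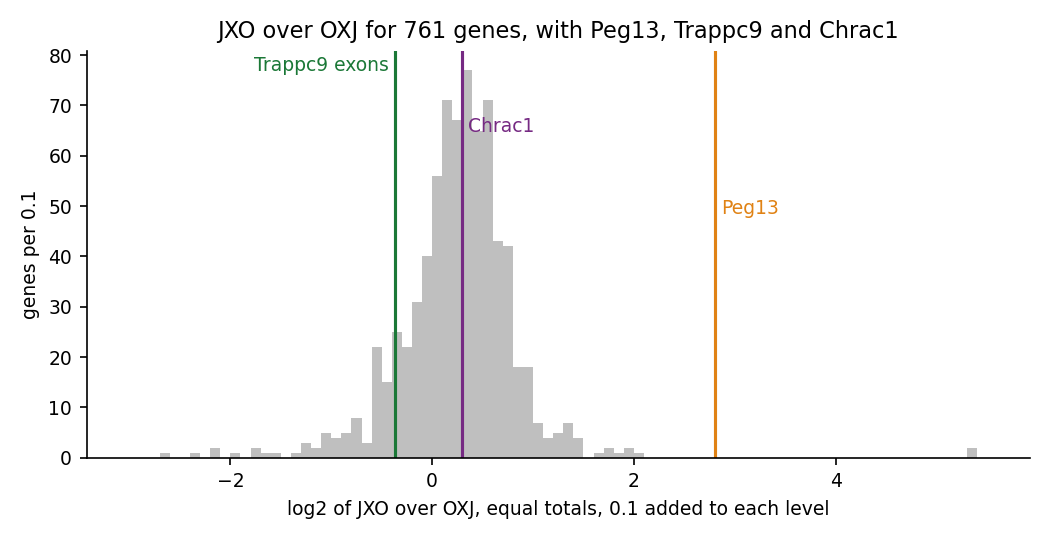
Number of genes per 0.1 of the log2 ratio of JXO over OXJ, for 761 genes with a mean level of at least 1. The lines mark Trappc9 exons at -0.37, Chrac1 at 0.29 and Peg13 at 2.80, and 2 genes lie to the right of Peg13.

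Other imprinted genes were set beside Peg13 as lists. Of 9 imprinted non-coding RNAs 7 were measured, with a median log2 ratio of 0.19, and 1 of them, Igf2as, was at least 2-fold higher in JXO (10.3 against 4.18). The study's read numbers at a base in Igf2as run the other way, with OXJ the higher cross. Of 22 paternally expressed genes 16 reached the mean level of 1, with a median of 0.40 and 1 past 2-fold, the amino acid transporter gene Slc38a4 (339 against 141), for which the study's read numbers also run the other way. Of 15 maternally expressed genes 12 reached it, with a median of 0.17 and 2 past 2-fold, Phlda2 (2.69 against 0.871) and Asb4 (10.9 against 3.88). No gene of the 3 lists was at least 2-fold higher in OXJ. Over all 761 genes the shares past 2-fold were 4.73% in JXO and 2.89% in OXJ. With lists this short, these counts do not set the lists apart from all genes. H19, Meg3, Rian and Mirg stand in both the non-coding and the maternal list.

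Trappc9 (ENSMUSG00000047921.8) spans 472 kb of the minus strand, chr15 72420051 to 72891634, and was transcribed in both libraries. Over the union of its exons the level was 1.91 (1.55 to 2.34) in JXO and 2.21 (1.83 to 2.63) in OXJ. The minus strand held 92.6% and 95.3% of this signal. Over the 22 exons of the longest coding transcript the level was 2.82 (2.26 to 3.47) and 3.35 (2.77 to 4.02). OXJ was 1.31-fold higher over the union of exons after scaling to equal totals, with an interval of 0.991 to 1.73 that includes equality, and 1.35-fold higher over the longest coding transcript (1.02 to 1.81). The log2 ratio over the union of exons was -0.37. It depends on the scaling: it was -0.64 when the median gene ratio was set to 0. It was -0.67 when the 2 deepest 10 kb bins were left out of the totals, and -0.19 with values as deposited. The intervals above hold for equal totals only.

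The order of Peg13 and its host depended on the library. In JXO the Peg13 body was 7.28 times as deep as the Trappc9 exons of the longest transcript (5.82 to 9.19), and in OXJ it was 0.748 times as deep (0.566 to 0.987). Over the union of exons, which includes exons of low level, Trappc9 in OXJ was at 2.21 beside 2.51 for Peg13, and the intervals overlapped. These ratios are taken within a library and do not depend on the scaling between libraries. Against the Trappc9 introns Peg13 was 427 times as deep in JXO (360 to 508) and 38.9 times in OXJ (30.5 to 49.4).

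The exons were read at both ends of Trappc9, before and after Peg13. The 16 exons on the 5′ side of Peg13 were at 2.63 (1.99 to 3.42) in JXO and 2.72 (2.10 to 3.46) in OXJ, which overlap. The 6 exons on the 3′ side were at 3.22 (2.19 to 4.56) in JXO and 4.76 (3.55 to 6.24) in OXJ. After scaling, the 3′ exons were 1.68-fold higher in OXJ (1.06 to 2.71), with 1 of 6 higher in JXO, and the 5′ exons 1.17-fold (0.808 to 1.71), with 8 of 16 higher in JXO. Single exons lay between 0 and 5.03 (median 3.0) in JXO and between 0.536 and 6.29 (median 3.15) in OXJ. The exon without a JXO read was the first. A shorter annotated transcript ends in an exon of its own, 72629954 to 72631832, between Peg13 and exon 17. This exon holds a stretch of coding sequence and a 3′ UTR, and it was at 0.315 (0.0952 to 0.764) in JXO and 0.154 (0.0256 to 0.493) in OXJ, below the exons of the long transcript in both.

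The Trappc9 introns had a low signal on the minus strand, 0.0480 (0.0410 to 0.0558) in JXO and 0.0644 (0.0568 to 0.0729) in OXJ. The level over all exons was 39.9 times that of the introns in JXO and 34.2 times in OXJ. After scaling, the introns were 1.53-fold higher in OXJ (1.25 to 1.86). Introns between the Trappc9 start and Peg13 were at 0.0430 in JXO and 0.0754 in OXJ, 1.99-fold higher in OXJ (1.52 to 2.64). Introns between Peg13 and the Trappc9 end were at 0.0539 and 0.0515, 1.09-fold higher in OXJ (0.802 to 1.47), an interval that includes equality. This 3′ value changed when intron 19, which is described after intron 16, was left out. OXJ was then 1.41-fold higher on the 3′ side (0.898 to 2.22), and 1.85-fold higher over the introns 3′ of exon 17 (1.09 to 3.22), whose interval overlaps that of the 5′ side.

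In the part of intron 16 between exon 16 and Peg13 the level was 0.0507 (0.0355 to 0.0701) in JXO and 0.120 (0.0971 to 0.146) in OXJ, 2.69-fold higher in OXJ after scaling (1.82 to 4.06). Farther upstream, between the Trappc9 start and exon 16, the levels were 0.0383 and 0.0487, 1.44-fold higher in OXJ (0.973 to 2.16). In the part of intron 16 between Peg13 and exon 17 the levels were 0.0385 in JXO and 0.0209 in OXJ. JXO was 1.62-fold higher there after scaling (0.621 to 4.53), an interval that includes equality. In the intron bases of the 10 kb on the 3′ side of the longer Peg13 run, JXO had 0.192 (0.0991 to 0.336). OXJ had 0.0274 (0.00311 to 0.101), from 3.84 reads beside 23.9 in JXO. These 2 intervals overlap slightly, and the fold of JXO over OXJ after scaling was 6.17 (1.34 to 60.5). The planned distance was 20 kb, and over it the fold was 4.06 (1.08 to 23.1), from 23.9 reads in JXO and 5.84 in OXJ. On the 5′ side of the run the nearest 10 kb held 0.0391 (0.00806 to 0.114) in JXO and 0.0579 (0.0188 to 0.135) in OXJ. Over these 10 kb the 3′ side was 4.91 times as deep as the 5′ side within JXO (1.32 to 27.1). Within OXJ the ratio was 0.473 (0.0423 to 2.94). Counted as 500 bp bins, 17 of the 25 bins in the 12.5 kb after the body held minus-strand signal in JXO and 9 in OXJ, against 5 and 8 of the 25 bins before it. The bins after the body include the rest of the longer JXO run and the last exon of the short transcript, so they are not intron alone.

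**Figure D3:**
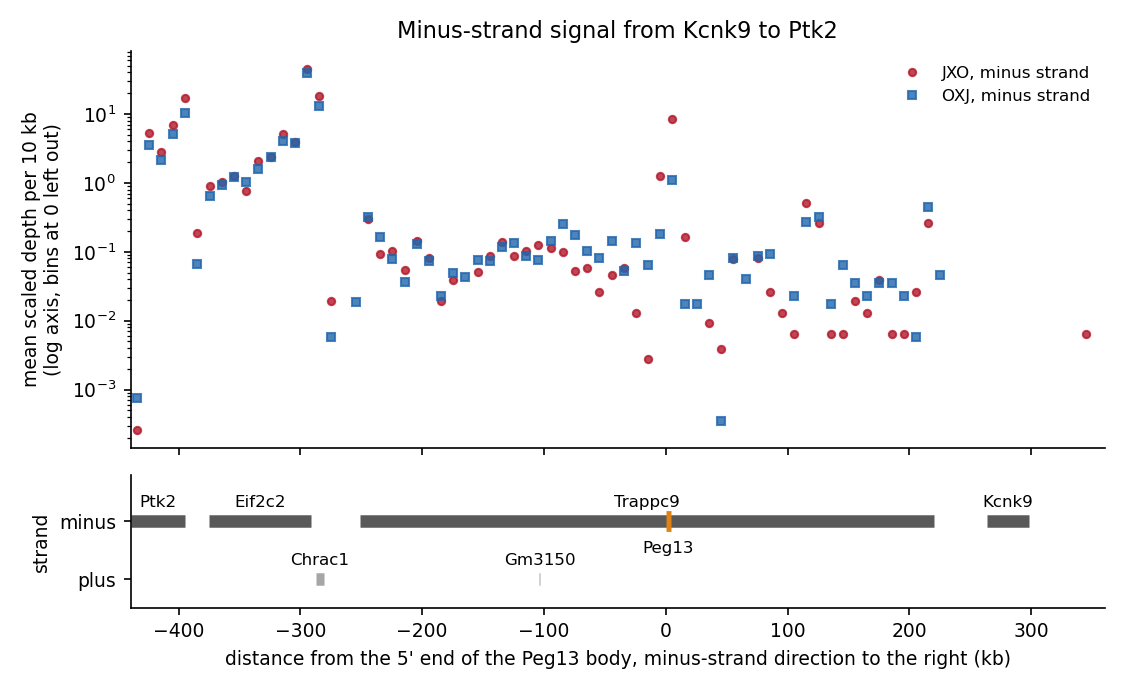
Minus-strand mean scaled depth in 10 kb bins on a log axis, with distance from the 5′ end of the Peg13 body in kb on the x axis and the annotated genes by strand under it. Most bins inside Trappc9 lie near 0.1 or below, the bins over Peg13 stand above them, and no bin over Kcnk9 has signal.

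Intron 19 of Trappc9 stood apart from the other introns. Intron 19 of the longest coding transcript, chr15 72515804 to 72523933, is 8.13 kb long and was at 0.818 (0.609 to 1.08) in JXO and 0.619 (0.449 to 0.833) in OXJ. The other 20 introns lay between 0 and 0.10 (median 0.0320) in JXO and between 0 and 0.114 (median 0.0336) in OXJ. Pooled, these other introns were at 0.0341 and 0.0544, so that intron 19 was 24 times as deep in JXO (16.9 to 33.6) and 11.4 times as deep in OXJ (8.02 to 15.9). Its signal lay on the minus strand, 96.2% in JXO and 100% in OXJ, and covered 57.5% and 57.2% of its bases. The 1 kb next to it in intron 18 was at 0.000652 in JXO and 0 in OXJ, and the 1 kb next to it in intron 20 was at 0 in both. The exons of the longest transcript were still 3.44 times as deep as this intron in JXO and 5.42 times in OXJ. The JXO over OXJ ratio of the intron after scaling was 1.16 (0.760 to 1.78), which includes equality. This intron was singled out after its values were seen.

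Intron 19 also differs from the others in the letters at its ends. Its first and last 24 bases are shown in the direction of transcription, from 72523933 down to 72523910 and from 72515827 down to 72515804 (mm9, minus strand), with TATCCTTT and the last pair of bases in capitals.
Intron 19 start: cTATCCTTTtcagtgtcttcccca
Intron 19 end: aagttttccttgactgaggcttAC
TATCCTTT is the core of the 5′ splice site of U12-type introns, a small class that is removed by the minor spliceosome. It was found within the first 12 bases, on the strand of the gene, of 17 of 8923 introns of protein-coding genes on chromosome 15 (0.191%), and of 1 of the 21 introns of the longest Trappc9 transcript. As annotated, intron 19 begins with CT, since a C stands before TATCCTTT. It ends with AC, as did 17 of the 8923 introns, and 4 introns had both TATCCTTT and this end. The other 20 introns of this transcript run from GT to AG, as did 97.7% of the introns of the chromosome. The annotated ends were taken as they are, and splicing was not measured, since the tracks hold depth and no junctions.

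With intron 19 left out, the introns 3′ of Peg13 were at 0.0232 in JXO and 0.0287 in OXJ. The ratio of the introns 5′ of Peg13 over those 3′ of it was 0.797 (0.582 to 1.09) in JXO and 1.46 (1.13 to 1.91) in OXJ over all introns, and it became 1.85 (1.24 to 2.82) and 2.63 (1.9 to 3.69) without intron 19.

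**Figure D4:**
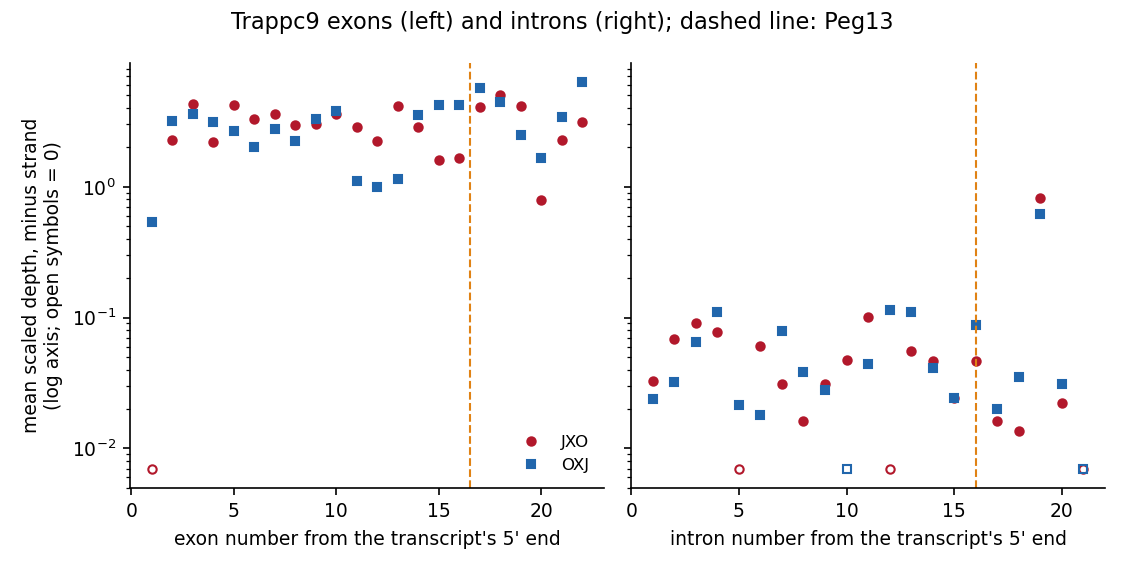
Mean scaled depth on the minus strand of each exon (left) and intron (right) of the longest coding Trappc9 transcript, numbered from its 5′ end, on a log axis with open symbols for 0. Intron 19 is at 0.818 in JXO and 0.619 in OXJ, above every other intron in both libraries.

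Chrac1 (ENSMUSG00000068391.2) lies 29.2 kb beyond the Trappc9 start on the plus strand, chr15 72920822 to 72927984, so that the genes point away from each other. Over its exons the plus strand was at 18.8 (16.9 to 21.0) in JXO and 13.5 (12 to 15.2) in OXJ. After scaling, JXO was 1.23-fold higher (1.04 to 1.45), and the log2 ratio of 0.29 was at the median of the 761 genes. This small difference depends on the scaling: it was 0.014 when the median gene ratio was set to 0, and -0.00998 when the 2 deepest 10 kb bins were left out of the totals. Its introns were at 0.441 (0.254 to 0.714) and 0.457 (0.275 to 0.713) on the plus strand. The main coding transcript was at 50.1 in JXO and 35.9 in OXJ over its own exons. A putative transcript adds a last exon, 72927766 to 72927984, where the plus strand was at 1.1 (0.117 to 4.16) and 0.330 (0.00122 to 2.59), against 30.4 and 24.5 over the first exon.

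The minus strand over Chrac1 was not silent. It held 5.99 in JXO and 4.56 in OXJ over the exons of Chrac1, and 54.1 and 39.9 over the last putative exon. The minus-strand signal came from the side of Eif2c2, the gene of Argonaute 2, which is annotated from 73015377 down to 72932055. In 500 bp bins at 0.1 times the Eif2c2 exon level or more, it ran past the annotated end to 72926001 in both libraries, for a further 6.05 kb. Over this extension the level was 50.2 (48.2 to 52.3) in JXO and 40.1 (38.4 to 41.8) in OXJ, 0.998 and 0.897 times the level of the Eif2c2 exons. Between the end of the run of Chrac1 signal and this extension, over 72924501 to 72926000, the minus strand was at 0.851 (0.404 to 1.57) and 0.464 (0.170 to 1.01). Without the last putative exon, the minus strand over the Chrac1 exons was at 1.05 and 0.931, and the plus strand at 20.7 and 14.9.

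**Figure D5:**
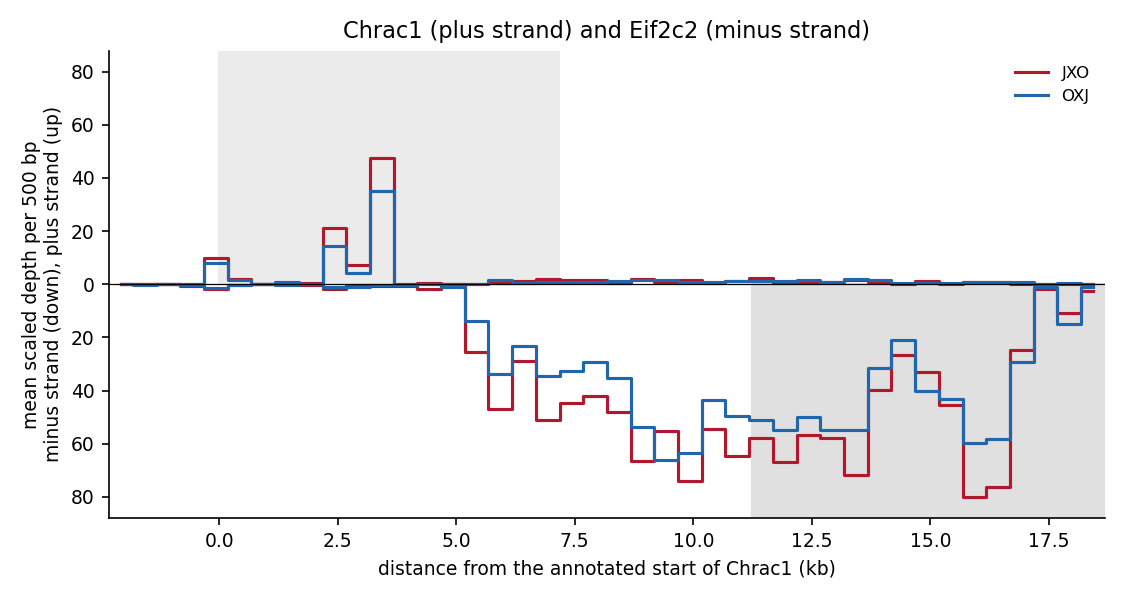
Mean scaled depth in 500 bp bins, plus strand upward and minus strand downward, with the distance from the annotated start of Chrac1 in kb on the x axis. Grey areas mark the annotated spans of Chrac1 (top) and Eif2c2 (bottom), and the minus-strand signal continues for 6.05 kb to the left of the annotated end of Eif2c2.

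Between Trappc9 and Chrac1 there was little signal. Over the 29.2 kb between their starts the minus strand was at 0.0283 (0.0107 to 0.0603) in JXO and 0.00595 (0.000428 to 0.0255) in OXJ, and the plus strand at 0.00223 and 0.00397.

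Kcnk9 (ENSMUSG00000036760.6) is annotated on the minus strand, chr15 72342549 to 72376709, 43.3 kb past the Trappc9 end. No base of its exons, its intron or the plus strand was covered in either library. The covered stretch that holds Trappc9 begins at 72393736, 17 kb above the Kcnk9 start, and the nearest signal on the other side was 1 JXO read at 72296518 to 72296617, 45.9 kb below the Kcnk9 end. Because the tracks hold only part of each library, the absence of reads is no measurement of silence, and no level is given.

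Ordered by level over the union of annotated exons, with the body for Peg13, Peg13 at 20.5 and Chrac1 at 18.8 led in JXO with overlapping intervals, and Trappc9 exons at 1.91 followed. In OXJ Chrac1 led at 13.5, and Peg13 at 2.51 and Trappc9 exons at 2.21 followed with overlapping intervals. This order changed when 1 coding transcript was taken for each gene. Chrac1 was then first in both libraries, at 50.1 in JXO and 35.9 in OXJ. Trappc9 was at 2.82 in JXO, below Peg13, and at 3.35 in OXJ, above Peg13. Of 14 other TRAPP complex genes 10 were found by symbol in the annotation, and none of these lay inside a covered stretch. The other 4 were not found under these symbols. None of 6 CHRAC or ISWI partners lay inside a stretch. Of 13 other two-pore potassium channels 1 did, Kcnk4, and it was at 0 in both libraries.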

How the data were processed

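Total RNA of 1 JXO and 1 OXJ MEF line was freed of ribosomal RNA and made into strand-specific, paired-end libraries, whose second strand carried dUTP and was degraded. The submitters' processing notes name CASAVA 1.9, TopHat 1.2.0 and mm9. The authors allowed reads up to 10 positions, turned aligned reads into depth per base and strand, scaled it to 50000000 reads, added 1 and deposited the log2 of that value in 4 tracks. Reads of near-identical copies can therefore be shared between positions.

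The deposited log2 values were turned back to scaled depth, which gave whole reads (largest relative deviation 3.61e-14). Tracks named forward held minus-strand RNA. Coordinates are mm9, whose chromosome 15 has the length of the NCBIM37 reference used here (103494974 bases), and genes are those of GENCODE M1. The planned use of annotated Peg13 exons was not possible, since that annotation has none, and bins at 10 times the Trappc9 intron level were used instead. The search for these bins was started from a base inside Peg13 that the study names. Introns leave out all annotated exons and the Peg13 run at 3 times the intron level. Covered bases closer than 50 kb to each other were counted as 1 stretch. Intervals are 95% exact Poisson intervals for levels and exact binomial intervals for shares and ratios, on read pairs of 200 bases, and cover counting error only. Ratios between libraries were scaled to equal totals of deposited reads, with a pseudocount of 0.1 for the log2 ratio. No test between the crosses was possible with 1 library each.

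Named genes were the 4 members, neighbours with signal within 500 kb of Trappc9, genes of the lists that were measured and passed 2-fold, and the 5 genes of at least the level of Peg13 with the nearest ratio. Genes at or past the ratio of Peg13, intron 19 and the Eif2c2 extension were named after their values were seen. The members and lists were chosen with earlier results of these data known. Python 3.11.15, numpy 2.4.6, scipy 1.17.1, matplotlib 3.10.9 and blastn 2.17.0 were used.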

Additional observations from a re-analysis of the deposited data

How the results depend on the processing

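Alternatives changed the measure, the interval, the scaling and the pseudocount. Direction changed for the log2 ratio of Chrac1 and for the 5′ over 3′ ratio of the Trappc9 introns in JXO. The order of these introns between the libraries changed only in levels that were not scaled to equal totals. The log2 ratio of Chrac1 was 0.29 at equal totals, 0.014 with the median gene ratio set to 0 and -0.00998 with totals taken without the 2 deepest 10 kb bins. The log2 ratio of Peg13 was 2.53 and 2.51 under these 2 settings and 2.48 with a pseudocount of 1. That of the Trappc9 introns was -0.15 as deposited and -0.034 with a pseudocount of 1. As a mean of log2 values, levels in JXO and OXJ were 17.5 and 1.97 for Peg13, 1.33 and 1.51 for Trappc9 exons, 0.0313 and 0.0477 for its introns, and 3.63 and 2.97 for Chrac1. Medians over 100 bp bins were 0 and 0 for the Trappc9 introns and 1.28 and 0.624 for Chrac1. With bases of at least 2 reads, the Trappc9 introns were at 0.0305 and 0.0275, against 0.0480 and 0.0644 over all bases. JXO was then the higher library only before scaling to equal totals. The log2 of total scaled depth in JXO over OXJ was 0.184, and at equal totals OXJ stayed slightly higher. Peg13 was at 15.6 and 1.94 over the run at 3 times the intron level, and at 29.7 and 4.44 within 500 bp of the starting base. Trappc9 exons were at 2.82 and 3.35 in the longest coding transcript, and at 2.58 and 3.06 without the last exon of the short transcript, which was chosen after seeing the data, as was leaving out intron 19. The Peg13 extent was 5500 and 4500 bp at 10 times the intron level, and 4750 bp in OXJ with 250 bp bins. Without intron 19, the Trappc9 introns were at 0.0341 and 0.0544, the 5′ over 3′ ratio was 1.85 and 2.63, against 0.797 and 1.46 with it, and Peg13 over introns was 602 in JXO. In the 20 kb next to Peg13 the 5′ over 3′ ratio was 0.227 and 3.26, and Peg13 over introns was 61.5 in OXJ. By the share of bases covered, Peg13 over introns was 22.3 and 10.4. The other 39 values stayed within their counting interval or, for the extent, within 1 bin of 500 bp. The causes of these changes were not tested.

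No paired analysis was possible because there is 1 library per cross, and there was no replicate to leave out. The alternatives for Kcnk9 gave no value. Depth limits the intron values, since 337 JXO and 509 OXJ reads lie in all measured Trappc9 introns.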

Other observations

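Gm3150 (chr15 72743784 to 72744235), annotated on the plus strand inside intron 15 of Trappc9, was at 113 (102 to 124) in JXO and 67.6 (59.7 to 76.2) in OXJ, far above the Trappc9 exons around it. Its exon matches the coding transcript of Gng5, a G protein gamma subunit gene, over 437 bases at 98.6% identity, and reads were allowed up to 10 positions, so the reads over Gm3150 and Gng5 cannot be told apart in the tracks. Its exon was left out of the Trappc9 introns.

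On the far side of Eif2c2, the 10 exons of Ptk2, the gene of focal adhesion kinase, that lie inside the covered stretch were at 99.7 (95.2 to 104) in JXO and 64.5 (61.1 to 68.1) in OXJ. The stretch ends at 73072800 inside Ptk2, and the rest of the gene was not measured. The Eif2c2 introns were at 1.23 (1.14 to 1.33) and 1.04 (0.963 to 1.12), above the Trappc9 introns in both libraries. The first 600 bases at the far end of the Eif2c2 extension hold AATAAA 4 times on the minus strand.

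Minus-strand signal over intron 19 of Trappc9 changed along the intron in both libraries. In JXO the first kb from its 5′ end was at 1.27 and the seventh at 0.254, while in OXJ they were at 0.785 and 0.692. OXJ was lower in other parts, at 0.341 in the third kb and 0.309 in the eighth, where JXO was at 0.906 and 0.753. With 102 reads in JXO and 87 in OXJ over the whole intron, these single-kb values rest on few reads.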
